A study of Danio rerio with 9 samples.

Results

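Of the 8793 zebrafish genes with a symbol on this array, 8 genes known for signalling downstream of the B cell receptor are described here, namely cd81a, syk, btk, blnk, plcg2, rasgrp3, swap70b and ralgps2. A probe set, the group of probes that reports a transcript, was taken where the platform annotation gave exactly 1 symbol and that symbol was a member. This gave 10 of the 15502 tested probe sets, with 3 for cd81a and 1 for each of the other 7 genes. The genes were chosen from their difference between the leukaemia models on these same arrays, so their levels and differences are a description and carry no test.

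The arrays profiled green fluorescent T-lymphoblasts sorted from the bodies of zebrafish whose T cell acute lymphoblastic leukaemia had reached its final stage. In the hMYC-ER model (6 arrays) the oncogene is human MYC joined to part of the oestrogen receptor, and hlk (3 arrays) is a line with heritable T cell malignancy. The labels name neither the promoter that drives the transgene or the fluorescent protein, nor a ligand given to the fish, nor their age. The labels do not say that each array came from a separate fish, so the p-values cover only sample-to-sample spread and part of it may be technical. In sorted cells measured in bulk, fewer cells of a type and less RNA per cell cannot be told apart. The labels used here give no scan date or batch, and any batch matching the models cannot be told apart from them.

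The B cell receptor starts a chain of tyrosine phosphorylation when it binds antigen. In mammals, Src family kinases and then Syk phosphorylate the receptor and the adaptor BLNK. BLNK brings Btk and phospholipase C gamma 2 together, and the lipase makes the second messengers that release calcium and recruit protein kinase C and Ras exchange factors. Several of these proteins, Syk, Btk and phospholipase C gamma 2 among them, also work in myeloid cells, while T cells use the related ZAP70 and phospholipase C gamma 1. The roles given below are those known from mouse and human.

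All signals are on the log2 scale after quantile normalization, with a floor at 4 (a signal of 16), and every difference is hMYC-ER minus hlk on that scale. Values at the floor have no order, and a difference is understated where only the lower model has values there. One hlk array stood apart on 1 of 2 RNA quality controls. On array 7 the signal of the GAPDH control at its 3' end was 50.8 times that at its 5' end, against 2.20 to 4.50 on the other arrays. The same ratio for the actin control was 2.17 on array 7, inside the 0.552 to 4.59 of the other arrays. The difference of each member's brightest probe set is also given without array 7. The hMYC-ER arrays, labelled as T-lymphoblasts, had high signals for the B cell genes igl1c1 and, on 1 of 2 probe sets, pax5. Of 12 T cell marker probe sets, 4, on trac, gata3 and runx3, were called lower than in hlk, by the rule given next. The other 8 were not called. The values are given below among the markers. On this scale 2925 probe sets (18.9%) were called different between the models, that is, had an adjusted p under 0.05 in limma, 1417 (9.14%) with the higher mean in hMYC-ER and 1508 (9.73%) with the higher mean in hlk. Which direction had more calls depended on the scaling, with 1241 and 1750 when arrays were centred on their medians and 1474 and 1389 for the signals as deposited. Each SE is that of the limma fit, which uses 1 moderated spread per probe set for both models. It is too small where the hlk arrays, fewer in number, varied more.

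All 10 member probe sets had the higher mean in hMYC-ER, by 1.49 to 6.55, and their median difference was 2.53, against -0.04 over all tested probe sets. For 9 of the 10, every hMYC-ER array lay above every hlk array, which was the case for 9.64% of all tested probe sets. The exception was the third probe set of cd81a. Because this contrast chose the genes, nothing is read from these counts.

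**Figure D1:**
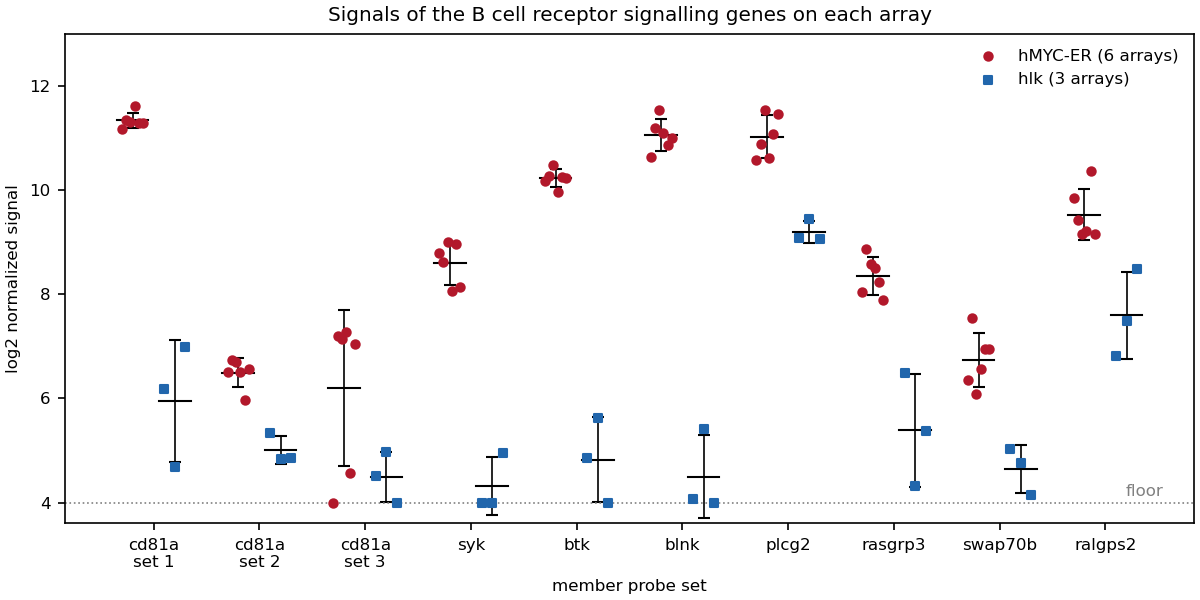
Log2 normalized signal (vertical axis) of the 10 member probe sets (horizontal axis) on the 6 hMYC-ER arrays (red circles) and the 3 hlk arrays (blue squares), with means as lines and SD as bars; the dotted line is the floor at 4. The groups are furthest apart for blnk, btk, syk and the first cd81a probe set, and they overlap for the third cd81a probe set.

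The tetraspanin CD81 is the only member at the cell surface. In mammals it organises other membrane proteins into microdomains, in B cells among other cell types. The brightest cd81a probe set ran from 11.17 through a median of 11.30 to 11.61 in hMYC-ER, against 6.18, 4.68 and 6.98 on hlk arrays 7, 8 and 9. The 6 hMYC-ER arrays lay close together (11.34 ± 0.15, SD, n = 6) and the hlk arrays were spread more widely (5.95 ± 1.17, SD, n = 3). The difference was 5.39 (SE 0.42), and 5.51 without array 7.

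The other cd81a probe sets gave smaller differences. The second ran from 5.96 through 6.54 to 6.73 in hMYC-ER, against 5.33, 4.84 and 4.86 in hlk, a difference of 1.49 (SE 0.19) in which the lowest hMYC-ER array stood 0.63 above the highest hlk array. The third stood at 7.19, 7.13, 7.27 and 7.04 on hMYC-ER arrays 2, 3, 4 and 6 but at 4.00 and 4.56 on arrays 1 and 5, against 4.51, 4.97 and 4.00 in hlk. Arrays 1 and 5 were therefore within the hlk range, and the difference of 1.70 had an SE of 0.85. The platform names the first and the third of these probe sets within a cluster of probe sets in which a further one is annotated to epcam. Whether the 3 probe sets report the same transcript was not tested.

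The kinase genes come next in the chain. SYK is the tyrosine kinase that docks on the phosphorylated receptor and passes the signal on. Its zebrafish gene syk ran from 8.05 through a median of 8.71 to 9.00 in hMYC-ER, against 4.00, 4.00 and 4.95 in hlk. Arrays 7 and 8 lay at the floor, and the lowest hMYC-ER array stood 3.10 above the highest hlk array. The difference was 4.28 (SE 0.30), and 4.14 without array 7.

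BTK, a kinase of the Tec family, is activated at the membrane and in turn activates phospholipase C gamma 2. Its loss in humans stops B cell development. The gene btk ran from 9.96 through 10.24 to 10.49 in hMYC-ER, against 4.85, 5.62 and 4.00 in hlk. As deposited, the signals were 1021 to 1442 in hMYC-ER against 34.2, 53.1 and 7.07 in hlk. The hMYC-ER arrays differed little among themselves (SD 0.17), and the gap to the highest hlk array was 4.34. The difference was 5.40 (SE 0.31), and 5.43 without array 7.

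BLNK is the adaptor on which these kinases and the lipase assemble. The largest difference among the 8 genes was that of blnk, 20th of all tested probe sets when ordered by their difference towards hMYC-ER. Its signal ran from 10.63 through a median of 11.05 to 11.54 in hMYC-ER, against 4.08, 5.42 and 4.00 in hlk. As deposited, the signals were 1601 to 2986 in hMYC-ER against 21.6, 46.1 and 5.51 in hlk. The means were 11.05 ± 0.31 in hMYC-ER (SD, n = 6) and 4.50 ± 0.80 in hlk (SD, n = 3), with a difference of 6.55 (SE 0.33) over all arrays and 6.35 without array 7.

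For plcg2 both models were well above the floor. Phospholipase C gamma 2 splits a membrane lipid into diacylglycerol and inositol trisphosphate. The signal of plcg2 ran from 10.58 through a median of 10.99 to 11.54 in hMYC-ER, against 9.08, 9.44 and 9.07 in hlk. The hlk arrays agreed closely (SD 0.21), and the lowest hMYC-ER array stood 1.13 above them. The difference was 1.83 (SE 0.25), that is 3.56-fold, and 1.76 without array 7.

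The remaining 3 genes encode proteins that act on small GTPases. RASGRP3 is recruited by diacylglycerol and loads Ras with GTP. Its gene ran from 7.90 through 8.37 to 8.87 in hMYC-ER, against 6.48, 4.31 and 5.38 in hlk. The hlk arrays were spread widely (SD 1.08), with array 7 the highest, and all lay below the hMYC-ER range. The rasgrp3 difference was 2.96 (SE 0.43), 3.55 without array 7 and 2.43 without array 8.

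SWAP70 binds phosphoinositides at the membrane, is linked to Rac and actin, and is abundant in mouse B cells. Its zebrafish gene swap70b ran from 6.08 through 6.75 to 7.54 in hMYC-ER, against 5.03, 4.75 and 4.14 in hlk. No hlk array reached the hMYC-ER range, but both models were dim on this probe set. The difference was 2.10 (SE 0.33), and 2.34 without array 7.

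RALGPS2 is an exchange factor for the GTPase Ral. The signal of ralgps2 ran from 9.15 through 9.32 to 10.36 in hMYC-ER, against 6.81, 7.49 and 8.48 in hlk. Array 9 of hlk came within 0.67 of the lowest hMYC-ER array. The difference was 1.93 (SE 0.40), 1.53 without array 7 and 2.36 without array 9.

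The order of the arrays within hMYC-ER was not shared by all members. Counting the brightest probe set of each gene, array 3 was the highest hMYC-ER array for 4 genes (blnk, btk, syk and plcg2) and the lowest for 2 (swap70b and ralgps2). Array 2 was the highest for rasgrp3 and swap70b, array 4 for cd81a and array 5 for ralgps2. In hlk, array 7 was the highest for rasgrp3 and swap70b, the lowest for ralgps2, and at the floor with array 8 for syk. The array with the high control ratio was thus not at the same end for all members.

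Every member difference stayed above 0 whichever array was left out, which the choice of genes favours and which is no sign of stability. Among the brightest probe sets, the widest ranges were those of cd81a (4.76 to 5.88) and rasgrp3 (2.43 to 3.55), followed by ralgps2 (1.53 to 2.36), btk (4.98 to 5.81) and blnk (6.29 to 7.02), in each case set by the hlk arrays. The floor also bore on the differences. With a floor at a signal of 64 the difference was 5.05 for blnk, 4.23 for btk, 2.59 for syk, 0.74 for swap70b and 0.50 for the second cd81a probe set.

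**Figure D2:**
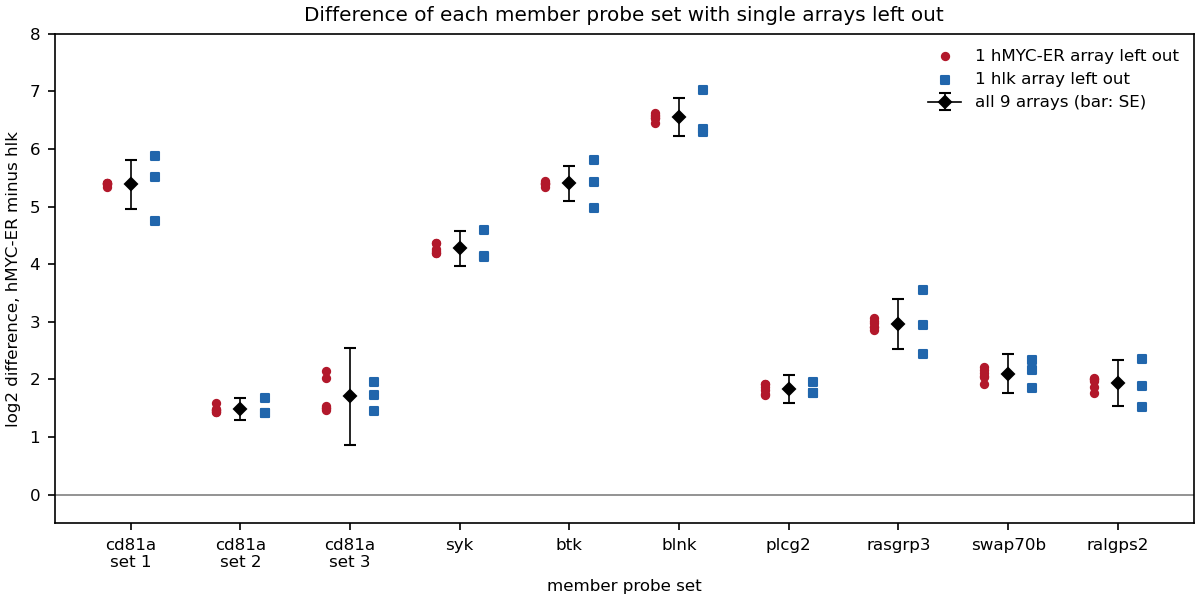
Log2 difference, hMYC-ER minus hlk (vertical axis), of each member probe set (horizontal axis) with 1 hMYC-ER array left out (red circles), with all 9 arrays (black diamonds, bars are SE) and with 1 hlk array left out (blue squares). For all but the third cd81a probe set, the largest single move comes from leaving out an hlk array.

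Other genes with a similar pattern were sought by likeness of profile. Each gene was centred on its own mean over the 9 arrays and set against the mean centred profile of the 8 members, whose difference was 3.81. Among 8785 other genes, the closest were the adducin gene add3a, whose profile differed by 0.19 per array on average, the chemokine receptor gene cxcr4b (0.22), the cell adhesion gene cadm2a (0.22), the protein kinase C gene prkcha (0.22) and the adaptor gene grb10a (0.24). Their differences were 4.13, 3.38, 3.86, 3.89 and 3.47. The measure is dominated by the step between the models, so it finds genes with a step of that size.

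Single members had other nearest genes. They were the Notch ligand gene dlc for blnk (0.33), tspan36 for btk (0.23), add3a for syk (0.25) and dnase1l4.2 for plcg2 (0.18). For rasgrp3 the nearest was si:ch73-191k20.4 (0.24), for swap70b rai14 (0.22), for ralgps2 chac1 (0.29) and for cd81a the transporter gene slc12a7b (0.25). Only add3a was among the nearest both to the mean and to a member.

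**Figure D3:**
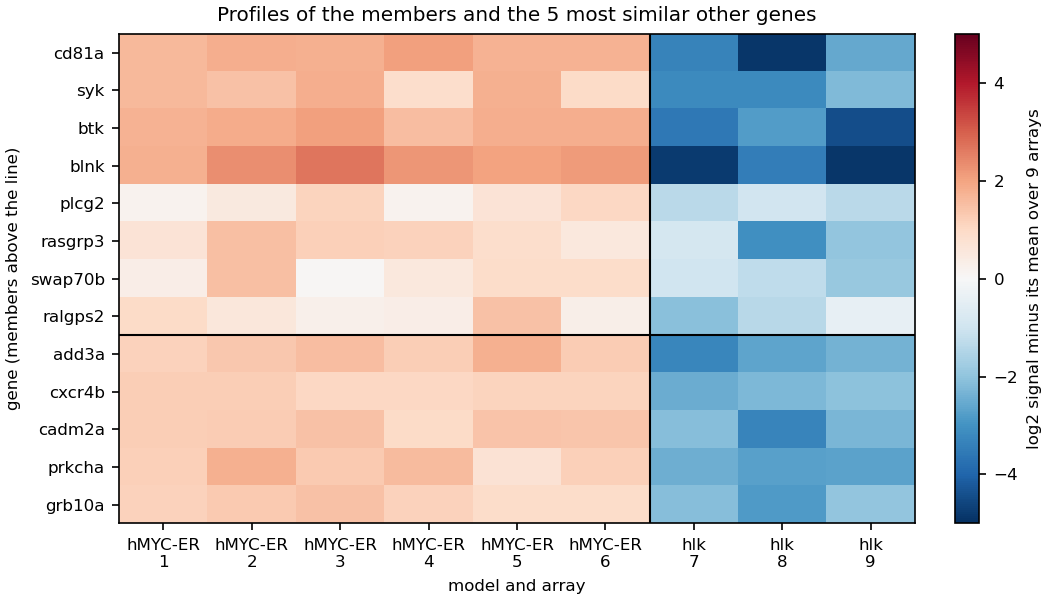
Log2 signal minus its mean over the 9 arrays (colour) for the 8 members, by their brightest probe set, and the 5 most similar other genes (rows), on hMYC-ER arrays 1 to 6 and hlk arrays 7 to 9 (columns). The step between the models is seen in every row and is steepest for blnk, btk and cd81a.

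The rest of the pathway did not share one direction. Of 202 other genes listed in 8 branches, 82 were measured by 103 probe sets. These lists too were drawn up with earlier results of these data known, so calls in them are description. In limma, 10 of these probe sets (9.71%, against 9.14% of all tested) were called with the higher mean in hMYC-ER and 16 (15.5%, against 9.73%) in hlk, and 77 were not called. The median difference was 0.03, against -0.04 over all tested probe sets. The calls fell on 10 genes and on 16 other genes. The counts of single lists given below are small and are to be read against the same shares of all tested probe sets.

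**Figure D4:**
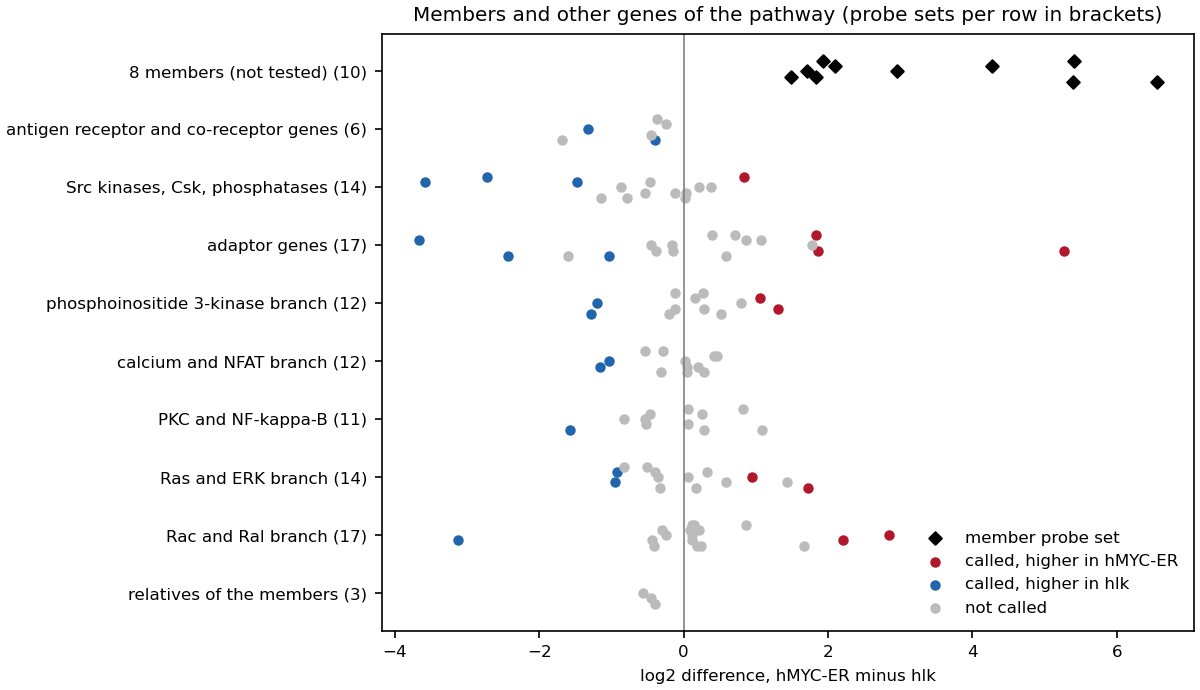
Log2 difference, hMYC-ER minus hlk (horizontal axis), of the 10 member probe sets (black diamonds) and of the other probe sets of the pathway by list (rows), coloured by call in limma (red, higher in hMYC-ER; blue, higher in hlk; grey, not called). The members lie between 1.49 and 6.55 by choice, and the relatives lie below 0. The antigen receptor and co-receptor list, measured only by tetraspanin genes, also lies below 0. The other lists lie on both sides of 0.

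At the receptor, none of cd79a, cd79b and cd22 had a named probe set here. Of 6 probe sets for 4 other tetraspanin genes, 0 were called higher in hMYC-ER in limma (0 at an unadjusted p under 0.05) and 2 higher in hlk, opposite in sign to cd81a. The gene cd82b averaged 9.11 ± 0.32 in hMYC-ER (SD, n = 6) and 10.43 ± 0.37 in hlk (SD, n = 3) (-1.32, adjusted p 0.00546 in limma), and cd63, a tetraspanin of lysosomes, averaged 12.75 in hMYC-ER and 13.15 in hlk (-0.40, adjusted p 0.018). A further pair of cd82b probe sets gave -0.25 and -0.36 and was not called. The call of cd63 ended without hlk array 8 (-0.36, adjusted p 0.0538), with the dimmest probe sets left out (adjusted p 0.0607) and with the floor at a signal of 1 (adjusted p 0.139).

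Negative regulators of receptor signalling were among the genes higher in hlk. The phosphatase gene ptpn6 encodes SHP-1, which removes phosphate from receptor complexes. It ran from 8.88 to 9.42 in hMYC-ER, against 12.15, 12.14 and 11.61 in hlk, and differed by -2.72 (SE 0.17, adjusted p 2.8e-05 in limma). The models did not overlap. The related phosphatase SHP-2 is known to favour Ras signalling. Its gene ptpn11b differed by -3.58 (adjusted p 0.000141). The paralogue ptpn11a was not called, at -0.12 (adjusted p 0.383) on its brighter probe set and 0.21 (adjusted p 0.654) on the other. The gene cblb, for a ubiquitin ligase that restrains antigen receptors, differed by -1.48 (adjusted p 0.0134).

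In the same list, csk, the kinase that inhibits Src family kinases, went the other way, averaging 11.09 ± 0.08 in hMYC-ER (SD, n = 6) and 10.24 ± 0.54 in hlk (SD, n = 3) (0.84, adjusted p 0.0226). Array 7 was the lowest in hlk at 9.63, with 10.52 and 10.58 on the others. Leaving it out gave a csk difference of 0.53 (adjusted p 0.00445). It was not called when arrays were centred on their medians (0.71, adjusted p 0.0582). In all, 1 of 14 probe sets for kinases and phosphatases was called in favour of hMYC-ER and 3 in favour of hlk. No probe set named lyn, the main Src family kinase of B cells, was measured here.

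Adaptor genes split evenly, with 3 of 17 probe sets called in each direction (17.6%). Of all tested, 9.14% were called in favour of hMYC-ER and 9.73% in favour of hlk. The adaptor gene stap2a ran from 8.47 to 10.11 in hMYC-ER and lay at the floor on all 3 hlk arrays, which makes the excess in hMYC-ER at least 38.5-fold (adjusted p 4.92e-05 in limma). The gene shc1, which links receptors to Ras, averaged 10.25 ± 0.25 in hMYC-ER (SD, n = 6) and 8.39 ± 0.52 in hlk (SD, n = 3) and differed by 1.86 (adjusted p 0.00122). Towards hlk, nck1b, an adaptor of the actin skeleton, differed by -3.67 (adjusted p 0.00018) and gab1, a docking protein for SHP-2 and phosphoinositide 3-kinase, by -2.43 (adjusted p 0.000782). The other calls were nck2a (1.83, adjusted p 0.0119) and grb2a, for which 1 of 2 probe sets passed (-1.03, adjusted p 0.00156) with all hMYC-ER arrays at the floor. Neither nck2a nor grb2a was called with the floor at a signal of 64.

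In the phosphoinositide 3-kinase branch, 2 of 12 probe sets were called in each direction. The phosphatase gene inpp4aa was higher in hlk (-1.19, adjusted p 0.00027 in limma), as was 1 of 2 probe sets of the regulatory subunit gene pik3r3b (-1.28, adjusted p 0.0179). The pik3r3b call ended without hlk array 9 (adjusted p 0.0619). The kinase gene pdpk1a (1.31, adjusted p 0.0279) and the phosphatase gene inpp4b (1.05, adjusted p 0.0459) were higher in hMYC-ER. The call of pdpk1a ended without any 1 of arrays 1, 2, 3, 7 and 9 (0.92 without array 7, adjusted p over the 5 cases 0.0505 to 0.0791), and with array weights (adjusted p 0.0505). The call of inpp4b held in 2 of 15 alternatives. It ended without any 1 of arrays 1, 4, 5, 6, 7, 8 and 9 (0.95 to 1.16, adjusted p 0.0629 to 0.139), and under median centring, signals as deposited, either other floor, the trended prior and array weights (adjusted p 0.0594 to 0.849).

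Of 12 probe sets for calcium and NFAT genes, 0 were called higher in hMYC-ER (1 at an unadjusted p under 0.05, ppp3r1b, 0.47) and 2 higher in hlk. These were the paralogous calcium channel genes orai1a and orai1b. The orai1a mean was 8.10 ± 0.15 for hMYC-ER (SD, n = 6) and 9.26 ± 0.12 for hlk (SD, n = 3), with a difference of -1.16 (adjusted p 0.000261 in limma), and orai1b differed by -1.03 (adjusted p 0.0182). The call of orai1b ended without hlk array 9 (-0.78, adjusted p 0.0567). In the branch of protein kinase C and NF-kappa-B, 1 of 11 probe sets was called, that of prkcbb, and 3 more had an unadjusted p under 0.05. Protein kinase C beta is the isoform on which B cell receptor signalling to NF-kappa-B depends in mice. The gene ran from 10.16 to 11.06 in hMYC-ER, against 12.15, 11.79 and 12.13 in hlk, and its difference of -1.57 (SE 0.21, adjusted p 0.00134) was opposite in sign to that of plcg2.

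Among 14 probe sets of the Ras and ERK branch, 2 were called in each direction. The kinase gene map2k1, which activates ERK, was higher in hMYC-ER (0.95, adjusted p 0.0118 in limma), and so was 1 of 2 probe sets of hrasb, whose hlk arrays were all at the floor (at least 3.30-fold, adjusted p 0.00189). The hrasb call ended with the floor at a signal of 64. The scaffold gene ksr1b (-0.95, adjusted p 0.0118) and the GTPase-activating gene rasa1a (-0.93, adjusted p 0.0302) were higher in hlk. The call of rasa1a ended without any 1 of arrays 2, 3, 4, 6, 7 and 9 (-0.69 to -0.97, adjusted p 0.0513 to 0.0901) and with array weights (-0.87, adjusted p 0.0789).

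In the Rac and Ral branch, 2 of 17 probe sets were called in favour of hMYC-ER and 1 in favour of hlk. The Rac exchange factor gene vav3b ran from the floor to 6.08 in hMYC-ER, against 8.39, 7.87 and 7.94 in hlk (-3.13, adjusted p 0.00297 in limma). The gene ralgapa1 encodes a subunit of the complex that switches Ral off. For ralgapa1, 1 of 2 probe sets was called, higher in hMYC-ER (2.20, adjusted p 0.00343), in the same direction as the Ral activator ralgps2, though not with the floor at a signal of 64. The gene rac1a stood at 8.25 to 9.08 in hMYC-ER, against 8.09, 4.00 and 5.37 in hlk, and differed by 2.85 (adjusted p 0.0315). Its call ended without any 1 of the arrays other than array 7. Without array 7 the difference was 4.01 (adjusted p 0.000411), without array 8 it was 1.95 (adjusted p 0.0807), without array 9 it was 2.63 (adjusted p 0.103), and without any 1 of the hMYC-ER arrays it was 2.77 to 2.93 (adjusted p 0.053 to 0.0611).

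Close relatives of the members were measured for 3 of 20 listed genes, and 0 of their 3 probe sets were called in limma, or had an unadjusted p under 0.05. The gene lcp2a, whose mammalian counterpart SLP-76 does in T cells what BLNK does in B cells, averaged 10.63 ± 0.27 in hMYC-ER (SD, n = 6) and 11.03 ± 0.42 in hlk (SD, n = 3) (-0.40, SE 0.22, adjusted p 0.265). The gene plcg1, the relative of plcg2 used by T cells, stood at 4.23, 6.92, 6.10, 6.49, 4.00 and 6.12 on hMYC-ER arrays 1 to 6, against 4.83, 6.68 and 6.77 in hlk (-0.45, SE 0.78, adjusted p 0.75). Its low hMYC-ER arrays, 1 and 5, were those that were low for the third cd81a probe set. Arrays 1 and 5 were also the lowest in hMYC-ER for other genes, stap2a among them (8.53 and 8.47). The 3' to 5' ratios of the GAPDH and actin controls were 4.50 and 2.175 on array 1, and 2.77 and 3.00 on array 5. Array 2, not low for plcg1, had the highest actin ratio (4.59). Array 7, with a GAPDH ratio of 50.8, was the lowest hlk array for plcg1. A part of RNA quality in these low values was not tested. The exchange factor gene rasgrp4 differed by -0.57 (SE 0.90, adjusted p 0.725). Missing the threshold does not show that these genes were alike in both models. Named probe sets for zap70, lat and rasgrp1 were not found here.

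Of 20 listed B cell markers 2 were measured. Both were called higher in hMYC-ER, by 2 of 3 probe sets (66.7%, against 9.14% of all tested). The marker lists were chosen with earlier results of these data known. Calls in them are therefore given as description and not as independent tests. The light chain gene igl1c1 ran from 13.90 to 14.19 in hMYC-ER, against 5.86, 6.61 and 6.50 in hlk (7.72, adjusted p 1.35e-07 in limma). The B lineage factor gene pax5 ran from 10.82 to 11.27 in hMYC-ER, against 4.92, 4.00 and 4.00 in hlk (6.79, adjusted p 1.34e-06), while its other probe set gave 0.15 (adjusted p 0.802). The summed signal of the 3 probe sets was 17860 to 20570 per hMYC-ER array, against 152.4 to 168.7 per hlk array. In hMYC-ER the bright igl1c1 weighs most in this sum.

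Of the markers of the labelled T cells, 8 of 27 were measured, by 12 probe sets. In limma 0 were called higher in hMYC-ER (1 at an unadjusted p under 0.05, tox, 0.76). Called higher in hlk were 4 (33.3%, against 9.73% of all tested), on trac, gata3 and runx3. The receptor chain gene trac ran from 6.26 to 8.88 in hMYC-ER, against 12.05, 10.13 and 12.64 in hlk (-4.59, adjusted p 0.00293) on 1 of 3 probe sets, and gata3 lay at the floor on 1 of the 6 hMYC-ER arrays and differed by -4.69 (adjusted p 0.00171). The first runx3 probe set differed by -3.72 (adjusted p 0.000105). The summed signal of the list was 4434 to 6810 per hMYC-ER array, against 30170 to 36790 per hlk array. Bright probe sets weigh most in this sum. Over the 12 probe sets the median difference was -1.02, within a range of -4.69 to 1.25. Neither cd4-1, cd8a, cd2 nor lck had a named probe set here.

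Since syk, btk and plcg2 are also used by myeloid cells, 27 myeloid markers were listed. Of these, 12 were measured by 16 probe sets. In favour of hMYC-ER, 4 of the 16 were called (25.0%, against 9.14% of all tested). In favour of hlk 0 were called (against 9.73% of all tested), and none had an unadjusted p under 0.05. The calls fell on the oxidase subunit genes ncf1 (7.93, adjusted p 5.47e-07 in limma) and ncf4 (1.60, adjusted p 0.00613) and on both probe sets of the PU.1 gene spi1b (5.30 and 5.29, adjusted p 9.07e-06 and 1.35e-05). PU.1 and these oxidase subunits are made by mammalian B cells too. Of the 12 probe sets not called, some are named here, picked after their values were seen. Among them, the granulocyte and macrophage genes mpx and csf1ra were at or near the floor in hMYC-ER. There csf1ra was at 4.00 on all 6 arrays and the 4 mpx probe sets at means of 4.02 to 4.22. The means of lyz, marco and c1qc were 6.03, 5.18 and 6.08 in hMYC-ER and 5.96, 6.00 and 6.34 in hlk, and none was called. Because of how these uncalled genes were picked, nothing is read from them about a share of myeloid cells. The summed signal of the list was 16280 to 24750 per hMYC-ER array, against 1809 to 3874 per hlk array. Bright probe sets weigh most in this sum, the brightest having a mean of 13.66 on the log2 scale. Over the 16 probe sets the median difference was -0.10, within a range of -1.88 to 7.93. The part of cell types in the members' differences was not tested beyond these values.

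**Figure D5:**
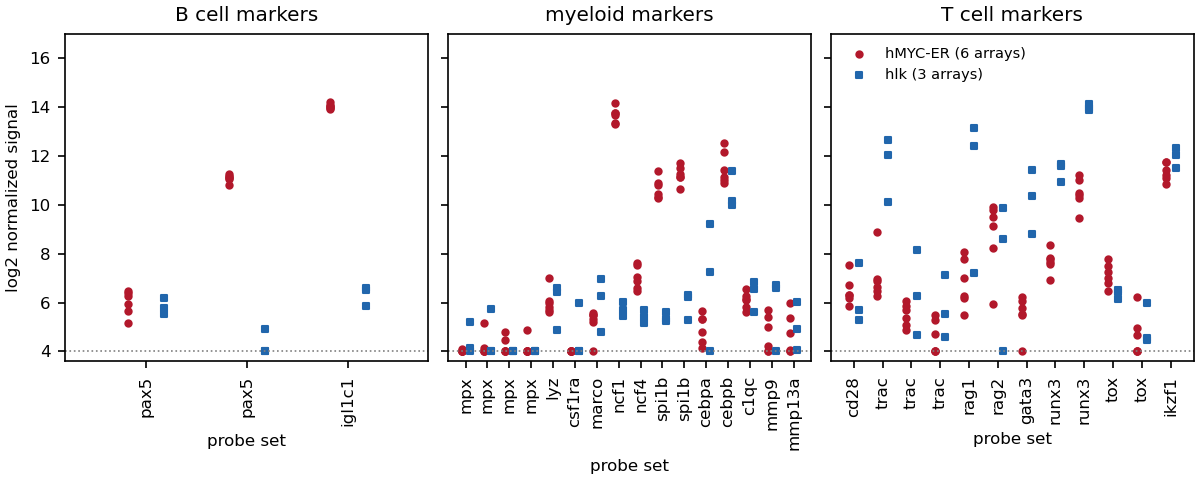
Log2 normalized signal (vertical axis) of every measured probe set of the B cell, myeloid and T cell marker lists (horizontal axis) on the 6 hMYC-ER arrays (red circles) and the 3 hlk arrays (blue squares); the dotted line is the floor at 4. In hMYC-ER, 1 of 2 pax5 probe sets, igl1c1, ncf1 and spi1b are high. There mpx and csf1ra, picked after their values were seen, lie at or near the floor.

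Among markers of other cells, 0 of 5 thrombocyte, 0 of 9 erythroid and 0 of 12 stromal, endothelial, muscle and epithelial probe sets were called in limma. At an unadjusted p under 0.05 there were 1 thrombocyte (f5), 0 erythroid and 2 endothelial and epithelial probe sets (tie1 and krt4), all lower in hMYC-ER. The haemoglobin gene hbaa1 averaged 8.89 ± 0.30 in hMYC-ER (SD, n = 6) against 7.56 ± 1.74 in hlk (SD, n = 3), and alas2, for haem synthesis, 5.83 in hMYC-ER against 6.18 in hlk. The thrombocyte genes nfe2 and gp1bb averaged 5.43 and 4.95 in hMYC-ER against 5.09 and 4.79 in hlk. The endothelial gene tie1 averaged 5.19 in hMYC-ER against 6.05 in hlk, and the brighter collagen probe set, of col1a1a, 6.01 in hMYC-ER against 6.21 in hlk. In the list of natural killer and mast cell markers, 1 of 3 probe sets was called, that of gata2a, a transcription factor gene of progenitors and mast cells. It was at the floor throughout hlk and in hMYC-ER at least 44.5-fold higher (adjusted p 5.42e-06 in limma). The other 2 probe sets differed by -0.81 and -0.95 and were not called.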

How the data were processed

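RNA from sorted, fluorescent lymphoblasts was labelled as biotinylated cRNA and hybridised to Affymetrix zebrafish arrays, per the labels' protocols. The deposited values are linear signal intensities per probe set; no source used here names the authors' summary algorithm. Their trimmed means were 500.1 to 500.2 on every array and their medians 90.0 to 111.0, so each array had been scaled alike. The number of arrays limits the precision.

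Signals were quantile normalized, floored at 16 and put on the log2 scale. After 115 control probe sets were left out, 15502 were fitted with limma 3.58.1 (R 4.3.3; lmFit and eBayes) on all 9 arrays, and p-values were adjusted by Benjamini-Hochberg over all of them, with a threshold of 0.05. After quantile normalization, which makes this share equal, 18.9% of values lay below the floor on each array. As deposited, the share was 15.8% to 20.2%, lowest on array 7. Symbols came from the platform annotation (10795 probe sets with 1 symbol, 135 with several and 4572 with none), of which 10711 were found by Entrez identifier and 1 was updated. A fold with an arm at the floor is given as "at least", against the floor in log2 means. The named genes, beyond the members and all relatives, are up to 4 called genes of each list with the smallest p (in marker lists with no call, the 2 brightest). Added to these are the 5 genes nearest to the members' mean centred profile by mean absolute difference, and the 1 nearest to each member. The genes ptpn11a, nck2a, grb2a, ppp3r1b, tox, f5, krt4 and the uncalled myeloid genes were named after their values were seen. The members and lists were chosen with earlier results of these data known. The alternatives were another normalization, floor or filter, array weights, a trended robust prior, a fold minimum and leaving out each array. The fit was also run on simulated arrays with independent noise and known changes in bright probe sets only. That run does not cover differences against the floor, and no result above rests on it.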

Additional observations from a re-analysis of the deposited data

Results flagged for a closer look

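Among 52 probe sets examined over the 6 hMYC-ER arrays, 6 had 1 array far from the other 5, where chance gives about 1 in 20. Among the members this was the second cd81a probe set, for which array 5 was the lowest at 5.96, against 6.51 on the next and 6.73 on the highest array. On array 6, pik3r3b was the lowest at 6.92 (next 7.80), orai1a at 7.81 (next 8.11), gata3 at 4.00, the floor (next 5.48), and gata2a at 8.66 (next 9.48). On array 5, trac was the highest at 8.88, with 6.94 on the next. All values are log2 signals.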

How the results depend on the processing

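The members' differences and the counts of calls were recomputed under 16 alternatives. The named list genes had 15 or 16, as the filter left some out. Each called list gene kept its sign, apart from a grb2a difference of 0 with the floor at 64, while some uncalled ones did not (rasgrp4, -0.57, reached 0.19). All 160 recomputed member differences were positive, which the choice of genes favours, and 153 moved by less than the spread between replicates. The trended prior and the filter leave a difference unchanged by design, so these counts are no sign of stability. With the floor at 64 the differences were 5.05 for blnk, 4.23 for btk, 2.59 for syk, 2.19 for rasgrp3, 0.74 for swap70b and 0.50 for the second cd81a probe set, and with the floor at 1 that of syk was 4.74. These follow from the floor itself, since the hlk signals of these probe sets, apart from array 7 for rasgrp3, lie below 64. With at least a 2-fold difference required, 1889 probe sets were called in all and 840 higher in hlk, against 2925 and 1508. Over the other alternatives the total was 2309 to 2992, and the larger count changed sides, with 1238 in favour of hMYC-ER against 1071 in favour of hlk at a floor of 1, and 1049 against 840 at 2-fold. Of the other pathway probe sets, 6 were called higher in hMYC-ER with the floor at 64, against 10, and the total was 21 to 31. Leaving out 1 array gave 0 to 1 myeloid probe sets higher in hlk (1 without hlk array 7 or 8) and 0 to 1 T cell marker probe sets higher in hMYC-ER (1 without hMYC-ER array 1), against 0 for both. Centring on array medians moved the median of all differences to -0.15. Signals near the floor limit the hlk levels of blnk, btk and syk, which are bounds. No paired analysis was possible because the labels pair no hMYC-ER array with an hlk array.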
